A study of Mus musculus with 5 samples.

Results

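The genes described here encode core parts of the insulin and insulin-like growth factor (IGF) signalling pathway. They were chosen by name as 10 of the 55573 genes in the count table: the ligand gene Igf2, the IGF-binding protein genes Igfbp2, Igfbp4 and Igfbp5, the receptor genes Igf1r, Insr and Igf2r, the docking protein genes Irs1 and Irs2, and Pik3r1, which encodes a regulatory subunit of phosphoinositide 3-kinase (PI3K). The choice was made with the response of Igfbp5 and Irs1 to Upf1 knockdown already known, so the differences of these 10 genes between the groups are given as a description and carry no test.

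Polyadenylated RNA was sequenced from N2A (Neuro-2A) cells, a line derived from a mouse neuroblastoma. Cells received 60 pmol of a commercial non-targeting siRNA (siCtl, 2 libraries, replicates 1 and 3) or 60 pmol of an siRNA against Upf1 (siUpf1, 3 libraries, replicates 1, 2 and 3), and all were transfected with the same TransIT-X2 reagent in medium with fetal bovine serum. UPF1 is an RNA helicase required for nonsense-mediated mRNA decay (NMD), and the comparison asks which transcripts differ in level once Upf1 is depleted. All libraries came from 1 cell line, and the labels do not say whether the libraries of a group came from separate transfections, so p-values measure the spread between these libraries, which may be technical.

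Insulin and the IGFs bind receptor tyrosine kinases at the cell surface, and the activated receptors phosphorylate the docking proteins IRS1 and IRS2. Phosphorylated IRS proteins recruit PI3K through its regulatory subunit, which leads to activation of AKT and to export of FOXO transcription factors from the nucleus, while a parallel arm runs through GRB2 and RAS to the ERK kinases. Secreted IGF-binding proteins hold IGFs in the extracellular space and can limit or prolong their access to the receptor.

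Each library had between 20402205 and 27717594 assigned reads, and a count of 0 allows up to 3 reads, or between 0.108 and 0.147 CPM (counts scaled to library size). Upf1 had 5217.1 and 5242.7 normalised read counts in siCtl and 2403.1, 2496.3 and 2448.7 in siUpf1, with a DESeq2 log2 fold change of -1.10 ± 0.051 (SE) and an adjusted p of 7.09e-101. Of 14 sympathoadrenal markers, 12 had at least 10 reads in every library. Summed sympathoadrenal markers ranged from 50864.8 to 51095.5 normalised counts in siCtl and from 56379.8 to 60038.9 in siUpf1. The sums were far lower for markers of fibroblasts (287.8 to 306.0 against 223.4 to 257.6, with Col3a1 and Lum at 0), glia (478.0 to 507.6 against 531.3 to 559.8), immune cells (38.7 to 40.8 against 33.9 to 35.6) and epithelial and endothelial cells (248.5 to 271.7 against 160.8 to 174.3). The part of these marker differences in the values below was not tested, and in such bulk RNA fewer cells of a type and less RNA per cell cannot be told apart.

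Igfbp5 and Irs1 stood far above the other 8 genes in their response. Normalised counts of Igfbp5 were 3.9-fold and those of Irs1 3.81-fold higher in siUpf1 than in siCtl, followed by Pik3r1 (1.85-fold) and Irs2 (1.49-fold). Igfbp4, Igf1r and Insr were 1.26-, 1.20- and 1.20-fold higher. Igfbp2 and Igf2r had overlapping groups, and Igf2 was at or below 1 read in every library. Among the 9 genes that DESeq2 tested, 7 were called at an adjusted p-value under 0.05, each higher in siUpf1, and the same 7 had groups that did not overlap. Over all 15191 tested genes 44.9% were called, which were 22.0% higher and 22.9% lower, and the siUpf1 libraries all lay above the siCtl libraries in 34.3% and all below them in 35.2%. The median log2 fold change was 0.33 over the 9 genes and -0.002 over all tested genes. Because the genes were chosen on the same contrast, nothing is read from these shares.

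**Figure D1:**
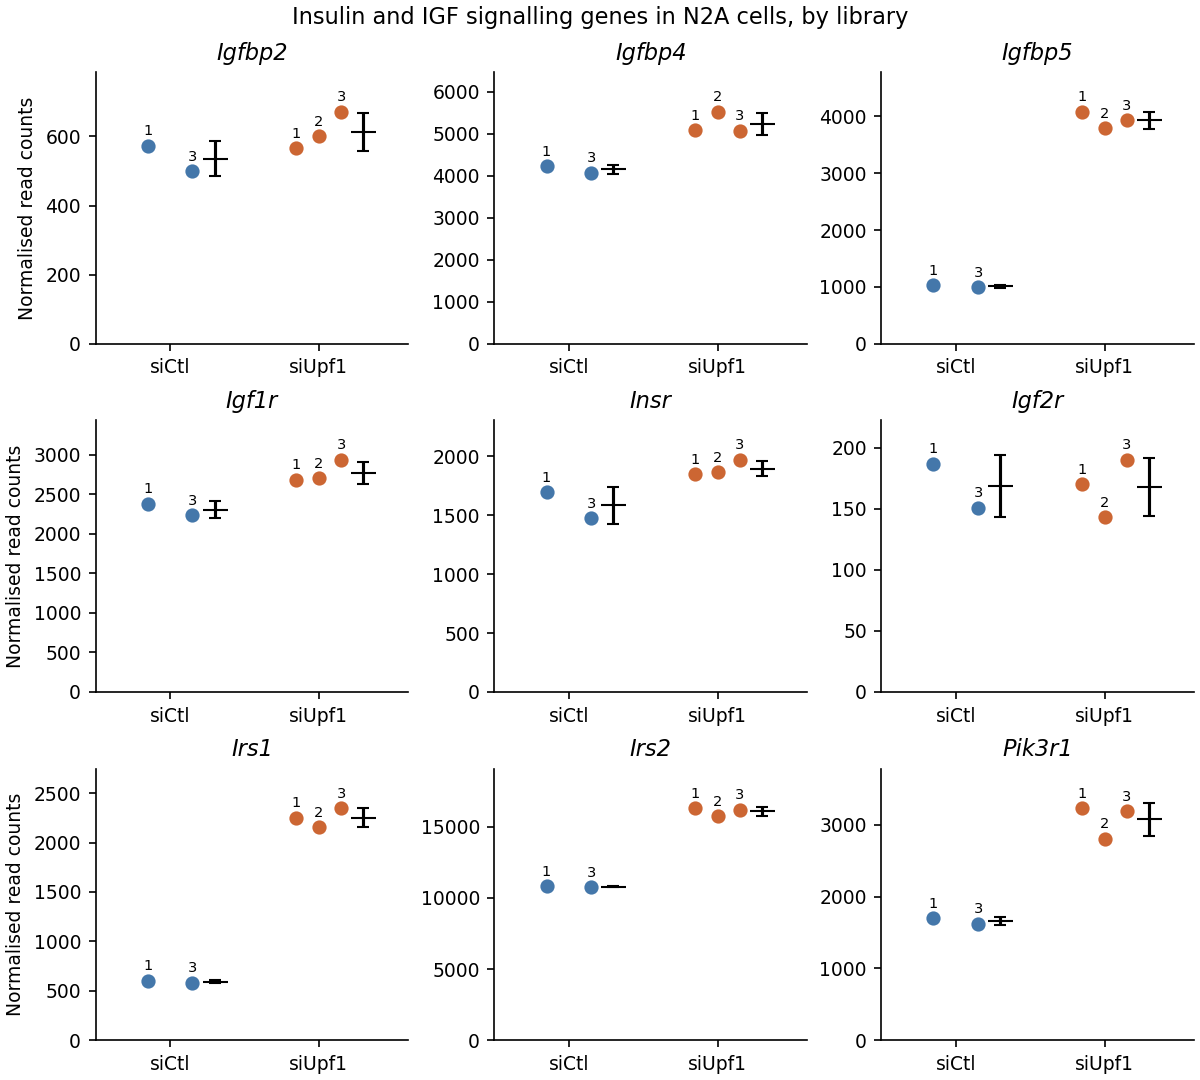
Normalised read counts (y axis, DESeq2 size factors, each panel from 0) of the 9 detected genes in the 2 siCtl and 3 siUpf1 libraries, with the replicate number above each point and the group mean ± SD as a black bar. Igfbp5 lay between 992.5 and 1027.3 in siCtl and between 3787.8 and 4083.1 in siUpf1, while the groups overlapped for Igfbp2 and Igf2r.

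The mRNAs that differed most had long untranslated regions. In the representative transcripts of the annotation, 3′ UTRs were 4445 nt long in Igfbp5, 4525 nt in Irs1 and 4317 nt in Pik3r1, longer than those of 94.7%, 95.0% and 94.3% of the 11209 mRNAs whose normalised counts averaged 50 or more (expressed mRNAs) (median 1038 nt). The same feature was present in genes with smaller differences, since the 3′ UTR was 7267 nt in Igf1r and 4747 nt in Insr. The 3′ UTR of Igfbp2 was short (312 nt) and that of Igf2r was 1304 nt, while Irs2 had 2329 nt, Igfbp4 2813 nt and Igf2 3047 nt. The 5′ UTRs of Irs1 (923 nt), Igfbp5 (745 nt) and Pik3r1 (621 nt) were also long beside a median of 180 nt. Those of Insr (489 nt), Igf2 (380 nt) and Igfbp4 (253 nt) lay above this median too. Those of Igf2r, Igfbp2, Igf1r and Irs2 lay below it.

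An exon junction at least 50 nt downstream of the stop codon is a classical feature of NMD targets, and upstream reading frames are another. No representative transcript of the 10 genes had such a junction, against 0.41% of expressed mRNAs. The single junction of Irs1 lies 21 nt past its stop codon. At least 1 ATG was present in the 5′ UTR of Irs1 (5), Pik3r1 (3), Igfbp4 (1) and Insr (1), a feature of 52% of expressed mRNAs, and Igfbp5 had none. Insr was the only one of the 10 genes with an isoform annotated as an NMD target, against 30.1% of expressed mRNAs.

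**Figure D2:**
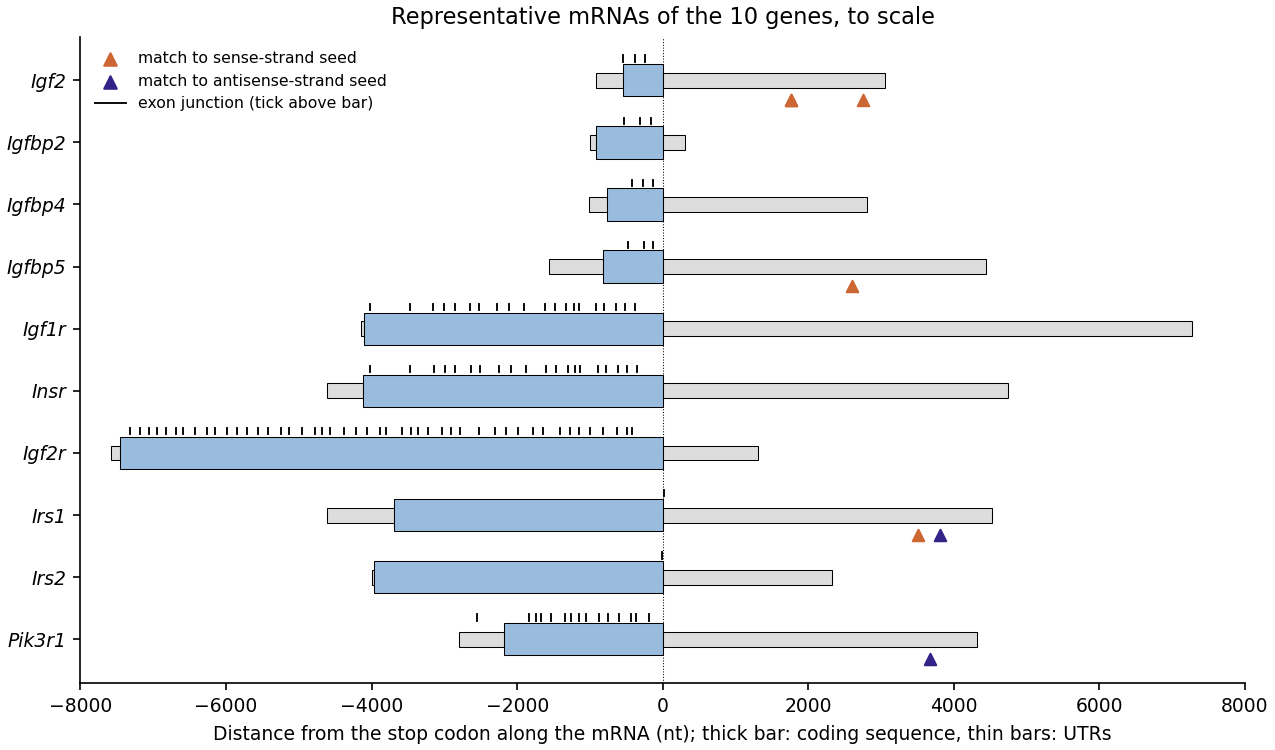
Representative mRNA of each of the 10 genes drawn to scale, with distance from the stop codon in nt on the x axis, coding sequence as thick bars, UTRs as thin bars, exon junctions as ticks and matches to the seed of either siRNA strand as triangles. Irs1 carries its only junction 21 nt past the stop codon, and siRNA seed matches lie in the 3′ UTRs of Igf2, Igfbp5, Irs1 and Pik3r1.

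Because siRNAs can also lower mRNAs that pair with bases 2 to 8 of either strand (the seed), 3′ UTRs were searched on the mRNA strand for 7-mers that match the Upf1 siRNA. For the antisense strand these were GATAATT and ATAATTA, and for the sense strand AACCTTG and ACCTTGA, where the first of each pair matches bases 2 to 8, the second matches bases 2 to 7 followed by A, and both can overlap in 1 site. An antisense match was present in 15.7% and a sense match in 16.6% of expressed mRNAs. A sense match was found in Igf2, Igfbp5 and Irs1, an antisense match in Irs1 and Pik3r1, and neither in the other 6 genes. The matches in the 3 genes with the largest log2 fold changes are shown from GENCODE M21 transcripts. They are written 5′ to 3′ on the minus strand (build GRCm38), with the matched 7-mer in capitals.
Igfbp5, sense match: caacttactagACCTTGAgtgagcctctg
Irs1, sense match: tgagcaggcacAACCTTGtcagtagtaac
Irs1, antisense match: ttaaagagcctATAATTAgcaaatatggt
Pik3r1, antisense match: tacaacaatctATAATTAtataaaataac

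All 4 windows are exonic and lie in the 3′ UTR. The Igfbp5 window spans chr1:72859762-72859790, with its match 2598 nt past the stop codon. The windows of Irs1 span chr1:82234096-82234124 and chr1:82233795-82233823, with matches 3513 and 3814 nt past the stop codon, and that of Pik3r1 spans chr13:101681192-101681220, 3671 nt past it. Long 3′ UTRs hold any 7-mer more often: among mRNAs with a 3′ UTR of similar length, a sense match was present in 40.9% of 812 mRNAs like Igfbp5 and in 41.8% of 785 mRNAs like Irs1, and an antisense match in 42.2% of the latter and in 40.3% of 862 mRNAs like Pik3r1. The matches are letters in the sequence and do not show that the siRNA acts there.

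Of the ligands, Igf2 (chromosome 7, 142650766 to 142666816, minus strand), the fetal growth factor expressed from the paternal allele, had 0 reads in 4 libraries and 1 read in siUpf1 replicate 3. The genes for IGF1 and both mouse insulins, Igf1, Ins1 and Ins2, had 0 reads in all 5 libraries. No ligand gene of the pathway was therefore detectable at this depth, and no fold change was computed for them. Among the imprinted neighbours, H19, the maternally expressed non-coding RNA beside Igf2, had 10.5 and 18.9 normalised counts in siCtl and 53.4, 36.4 and 29.4 in siUpf1. By DESeq2 it rose by 1.43 ± 0.487 (SE) on the log2 scale (adjusted p = 0.00914), but the call was lost without siCtl replicate 1 (1.07, adjusted p = 0.179) and without siUpf1 replicate 1 (1.15, adjusted p = 0.122). Airn, the non-coding RNA antisense to Igf2r, had means of 56.0 ± 9.78 (SD, n = 2) and 74.0 ± 13.6 (SD, n = 3), a log2 fold change of 0.41 that was not called.

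Igfbp5 (chromosome 1, 72857932 to 72874884, minus strand) encodes a binding protein that is held in the extracellular matrix. It had 1027.3 and 992.5 normalised counts in the siCtl libraries and 4083.1, 3787.8 and 3933.8 in the siUpf1 libraries. Every siUpf1 library was more than 3-fold above both siCtl libraries. The log2 fold change was 1.96 (SE 0.063), the 40th highest of the 15191 tested genes, and stayed between 1.94 and 1.99 under the 11 other settings examined. Relative to the siCtl mean, the 3 siUpf1 libraries lay 2.02, 1.91 and 1.96 higher on the log2 scale, so the libraries differed little among themselves.

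Igfbp4 (chromosome 11, 99041244 to 99054392, plus strand), whose product mainly inhibits IGF action and is cleaved by the protease PAPP-A, had 4229.7 and 4070.9 normalised counts in siCtl and 5087.2, 5522.3 and 5074.8 in siUpf1. The groups did not overlap, but the log2 fold change of 0.33 (SE 0.053) was small beside that of Igfbp5. Igfbp2 (chromosome 1, 72824503 to 72852474, plus strand), a binding protein abundant in fetal and neural tissue, had 572.3 and 499.1 normalised counts in siCtl and 565.6, 599.9 and 671.2 in siUpf1. The lowest siUpf1 library of Igfbp2 fell below the higher siCtl library, and its log2 fold change was 0.19 (SE 0.113).

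Igfbp2 and Igfbp5 are neighbours on chromosome 1. Their 3′ ends face each other across 5457 bases that hold no other annotated gene. Despite this position the log2 fold changes were 0.19 for Igfbp2 and 1.96 for Igfbp5.

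The other binding protein genes went in both directions. Igfbp6, whose product prefers IGF2, fell from 715.7 ± 6.22 (SD, n = 2) to 328.4 ± 11.3 (SD, n = 3) normalised counts, with a DESeq2 log2 fold change of -1.13 ± 0.110 (SE) and an adjusted p of 3.22e-23. Igfbp7, a related secreted protein with low IGF affinity, rose from 478.1 ± 29.7 to 703.2 ± 37.4 normalised counts (DESeq2, 0.56 ± 0.104 on the log2 scale, adjusted p = 4.67e-07). Igfbp1 and Igfbp3, chosen after their values were seen, had 0 reads in all libraries.

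To compare the binding protein genes with each other, normalised counts were divided by the merged exon length of each gene in kb. On this per-kb scale, Igfbp5 took 6.94% and 6.86% of the summed level of the 5 detected IGFBP mRNAs in siCtl, and 22.4%, 20.6% and 21.4% in siUpf1. Igfbp6 took 26.3% and 26.5% in siCtl and 9.53%, 10.0% and 9.50% in siUpf1. Igfbp5 was thus the least abundant per kb of the 5 in both siCtl libraries and the second most abundant in each siUpf1 library, after Igfbp4. The share of Igfbp4 was 38.3% to 38.9% in siCtl and 37.6% to 40.9% in siUpf1, so its place at the top was kept. The per-kb sum itself was 2464.4 and 2409.8 in siCtl and 3028.5, 3059.0 and 3055.0 in siUpf1.

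**Figure D3:**
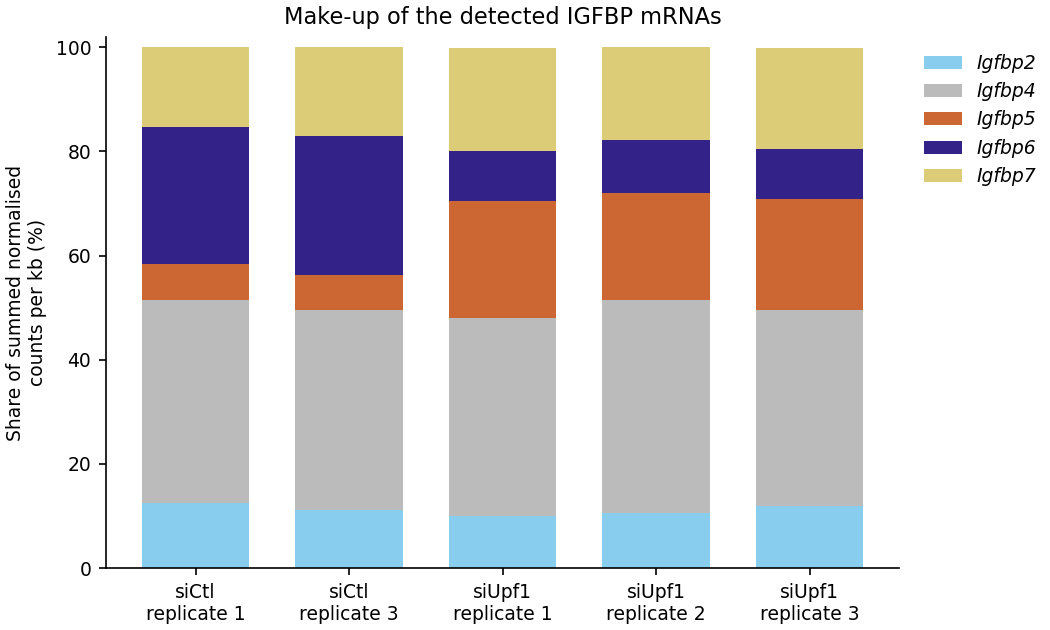
Share (%) of each of the 5 detected IGFBP mRNAs in their summed normalised counts per kb, as 1 stacked bar per library. Igfbp5 takes 6.86% to 6.94% in siCtl and 20.6% to 22.4% in siUpf1, and Igfbp6 takes 26.3% to 26.5% in siCtl and 9.50% to 10.0% in siUpf1.

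The receptor genes had log2 fold changes of 0.27 (Igf1r), 0.26 (Insr) and 0.00 (Igf2r), on either side of the 0.19 of Igfbp2. Igf1r (chromosome 7, 67952827 to 68233668, plus strand), which encodes the tyrosine kinase receptor for IGF1 and IGF2, had 2379.5 and 2233.1 normalised counts in siCtl and 2685.9, 2702.2 and 2935.4 in siUpf1. Its groups did not overlap, with a log2 fold change of 0.27 (SE 0.063). Insr (chromosome 8, 3122061 to 3279617, minus strand), the insulin receptor gene, had 1692.9 and 1471.8 normalised counts in siCtl and 1849.0, 1862.5 and 1968.2 in siUpf1. The siCtl libraries of Insr differed from each other by more than the lower siUpf1 libraries differed from siCtl replicate 1. Its log2 fold change was 0.26 (SE 0.073), and it was 0.36 without siCtl replicate 1 and 0.16 without siCtl replicate 3, where Insr was no longer called.

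Igf2r (chromosome 17, 12682406 to 12769664, minus strand) encodes the mannose 6-phosphate receptor, which takes up IGF2 for degradation. The gene is maternally expressed in most mouse tissues. It had 186.6 and 150.9 normalised counts in siCtl and 169.9, 143.1 and 189.9 in siUpf1, with the groups fully interleaved. The log2 fold change was 0.00 with an SE of 0.195, wider than that of any other of the 9 genes, and lay between -0.15 and 0.15 under the other settings. A difference of the size seen for Igf1r was not detectable for Igf2r at this depth. Per kb of exon, Igf1r had 1.15 and 1.24 times the level of Insr in siCtl and 1.19, 1.19 and 1.22 times in siUpf1, so the balance of these receptor mRNAs overlapped between the groups. The level per kb of Igf1r was 7.07 and 8.20 times that of Igf2r in siCtl and 8.77, 10.5 and 8.57 times in siUpf1.

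Irs1 (chromosome 1, 82233101 to 82291416, minus strand) and Irs2 (chromosome 8, 10984681 to 11008458, minus strand) encode the main docking proteins, each with 2 exons. Irs1 had 600.6 and 582.1 normalised counts in siCtl and 2252.8, 2155.0 and 2348.9 in siUpf1. As for Igfbp5, each siUpf1 library was more than 3-fold above both siCtl libraries. The log2 fold change of Irs1 was 1.93 (SE 0.076), the 46th highest of the tested genes, with a range of 1.90 to 1.96 under the other settings.

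Irs2 was the most abundant of the 10 genes per kb, and had 10836.7 and 10760.8 normalised counts in siCtl and 16325.2, 15749.9 and 16207.6 in siUpf1. The groups were far apart relative to their spread, although the log2 fold change was only 0.58 (SE 0.039). In absolute terms Irs2 still dominated, since per kb its level was 26.1 and 26.7 times that of Irs1 in siCtl and 10.5, 10.6 and 9.98 times in siUpf1. The mean ratio was 26.4 ± 0.454 (SD, n = 2) in siCtl and 10.3 ± 0.318 (SD, n = 3) in siUpf1.

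Pik3r1 (chromosome 13, 101680563 to 101768217, minus strand) encodes the p85α, p55α and p50α regulatory subunits of PI3K. It had 1698.1 and 1622.7 normalised counts in siCtl and 3233.7, 2806.3 and 3186.8 in siUpf1. Replicate 2 was the lowest siUpf1 library but remained well above both siCtl libraries. The log2 fold change was 0.89 (SE 0.069), with a range of 0.85 to 0.95 under the other settings.

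Per kb of exon, the siCtl means placed the 9 detected genes in the order Irs2 (1707.9), Igfbp4 (939.8), Igfbp2 (290.0), Igfbp5 (168.1), Pik3r1 (164.7), Igf1r (137.4), Insr (115.1), Irs1 (64.7) and Igf2r (18.1), in normalised counts per kb. Igfbp5 and Pik3r1 were closer than their spread (SD 4.10 and 5.29). In siUpf1 the order of the per-kb means was Irs2 (2545.3), Igfbp4 (1183.9), Igfbp5 (655.2), Igfbp2 (331.5), Pik3r1 (305.2), Irs1 (246.3), Igf1r (165.2), Insr (137.7) and Igf2r (18). On this scale Igfbp5 thus passed Igfbp2, and Irs1 passed both receptor genes Igf1r and Insr. Igfbp2 and Pik3r1 differed in siUpf1 by less than the SD of Igfbp2 (29.2). Merged exons are longer than the representative transcripts in Igf1r (16791 against 11409 nt), Insr (13746 against 9355 nt) and Pik3r1 (10079 against 7113 nt). For Irs1 both lengths are 9144 nt, so the order, including that of Irs1 and Igf1r, depends on the length used. Ratios per kb that include Igf1r, Insr or Pik3r1 also depend on it in size, but not in their relative change between groups.

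The genes most like Igfbp5 and Irs1 were sought among 10552 protein-coding genes whose normalised counts averaged 100 or more, by the root mean square difference over the 5 libraries of log2 counts relative to the siCtl mean. For Irs1 the nearest was Fbn1, the gene for the matrix protein fibrillin-1 (0.0153 log2 units, 469.5 ± 19.5 in siCtl and 1781.7 ± 84.2 normalised counts in siUpf1), followed by Igfbp5 (0.0447) and Syn2, the gene for the synaptic vesicle protein synapsin II (0.0538). For Igfbp5 the nearest were Cavin2, a gene for a caveolar coat protein (0.0411), Irs1 (0.0447) and Fbn1 (0.0544). Igfbp5 and Irs1 were therefore among each other's 3 nearest genes. The measure includes the fold change itself, and both genes were chosen with their strong rise already known. It is therefore given only as a description over 5 libraries.

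Around these genes, a wider set of 107 pathway genes was examined in 8 lists set by role, with earlier results of these data already known. DESeq2 tested 86 of them, of which 29 rose, 25 fell and 32 were not called, or 62.8% called, with a median log2 fold change of 0.07. Over all tested genes 44.9% were called (22.0% higher and 22.9% lower), and the counts of each list below stand beside that background with no test of the difference. The PI3K-AKT kinases and subunits (14 tested, 4 rose, 5 fell, median 0.12) included the strongest riser of the abundant genes, Pik3r2. Its product p85β is the other widely expressed PI3K regulatory subunit, and it had 1639.4 and 1524.6 normalised counts in siCtl and 3501.4, 3733.8 and 3550.5 in siUpf1 (DESeq2, 1.18 ± 0.061 on the log2 scale, adjusted p = 1.28e-82). Both Pik3r1 and Pik3r2 were thus higher in every siUpf1 library than in any siCtl library. The ratio of Pik3r2 to Pik3r1 per kb was 2.33 and 2.27 in siCtl and 2.61, 3.21 and 2.69 in siUpf1.

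The catalytic PI3K subunits did not move as one. Pik3cd (p110δ) fell from 913.0 ± 10.4 to 559.2 ± 46.6 normalised counts (DESeq2, -0.71 on the log2 scale, adjusted p = 5.41e-12). Chosen after their values were seen, Pik3cb (p110β) fell by 0.49 and Pik3ca (p110α) rose by 0.26 on the log2 scale (adjusted p = 2.46e-05 and 0.000228).

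Of 14 adaptors tested other than IRS1 and IRS2, 5 rose and 2 fell (median 0.02), a called share of 50% beside 44.9% over all tested genes. The groups did not overlap in 5 adaptors with siUpf1 higher and in 5 with siUpf1 lower. Over all tested genes these shares were 34.3% and 35.2%, so the counts are not read as a result. Dok4, an IRS-related docking protein, rose from 1636.0 ± 30.6 to 2598.3 ± 155.3 normalised counts (DESeq2, 0.67 on the log2 scale, adjusted p = 2.93e-22). Grb2, the adaptor that links receptors to RAS activation, fell from 2615.5 ± 46.2 to 1803.7 ± 48.9 (DESeq2, -0.54 on the log2 scale, adjusted p = 1.03e-17). In the RAS-ERK arm 15 genes were tested, 7 rose and 3 fell (median 0.00). Nras, a RAS GTPase, fell from 4248.8 ± 43.3 to 2060.5 ± 43.3 normalised counts (DESeq2, -1.04 on the log2 scale, adjusted p = 6.86e-81), and Spry2, a feedback inhibitor of receptor tyrosine kinase signalling, rose from 801.3 ± 9.77 to 1286.7 ± 31.2 (0.68, adjusted p = 6.86e-17).

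Of 18 attenuators tested, 3 rose and 8 fell (median -0.08). The groups did not overlap in 7 with siUpf1 higher and in 9 with siUpf1 lower, beside 34.3% and 35.2% of all tested genes. Within the SOCS family of cytokine and insulin signalling inhibitors, Socs3 fell from 174.4 ± 30.5 to 74.1 ± 12.4 normalised counts (DESeq2, -1.24 on the log2 scale, adjusted p = 8.03e-07) and Socs2 rose from 463.8 ± 25.9 to 690.7 ± 20.2 (0.57, adjusted p = 1.52e-07). Socs1, chosen after its values were seen, was lower too (DESeq2, -0.73 on the log2 scale, adjusted p = 0.0095). Trib3, an AKT-binding pseudokinase chosen after its values were seen, fell by 0.69 on the log2 scale (adjusted p = 6.01e-47).

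Of 12 FOXO factors and genes that FOXO can induce that were tested, 5 rose and 4 fell (median -0.05). Cited2, a transcriptional co-regulator, rose from 1426.7 ± 37.1 to 2482.1 ± 134.7 normalised counts (DESeq2, 0.80 on the log2 scale, adjusted p = 7.45e-31). Trp53inp1, a stress-induced gene, fell from 209.3 ± 19.8 to 122.3 ± 18.4 (-0.76, adjusted p = 0.000367), a call that was lost without siCtl replicate 1 (adjusted p = 0.0548).

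Of the genes that process ligands and binding proteins 6 were tested and 2 rose (median 0.17). Pcsk6, a proprotein convertase, rose from 928.4 ± 2.53 to 1480.7 ± 59.9 normalised counts (DESeq2, 0.67 on the log2 scale, adjusted p = 1.35e-17). Stc2, which encodes the PAPP-A inhibitor stanniocalcin-2, had 1664.7 ± 58.0 and 1909.2 ± 83.2 normalised counts (0.20, adjusted p = 0.00967), and its call was lost without siCtl replicate 1 (adjusted p = 0.197) or siUpf1 replicate 2 (adjusted p = 0.0742). In the list of other ligands and binding proteins 3 of 10 genes were tested, of which 2 rose and 1 fell (median 0.56). Besides Igfbp7 the riser was Igfbpl1, an IGFBP-like gene chosen after its values were seen (15.9 ± 0.223 to 37.1 ± 9.44 normalised counts, adjusted p = 0.0241), whose call was lost without either siCtl library (adjusted p = 0.141 and 0.143) and without siUpf1 replicate 2 (0.147) or 3 (0.095). Of the IGF2 mRNA-binding proteins and imprinted neighbours 4 were tested, 1 rose and 2 fell (median 0.07). Igf2bp2 fell from 181.2 ± 13.2 to 75.7 ± 3.98 normalised counts (-1.26, adjusted p = 3.7e-08), whereas Igf2bp3 (1060.5 ± 9.40 and 880.7 ± 8.36; -0.27, adjusted p = 0.00279) lost its call without either siCtl library (adjusted p = 0.0669 and 0.0532).

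**Figure D4:**
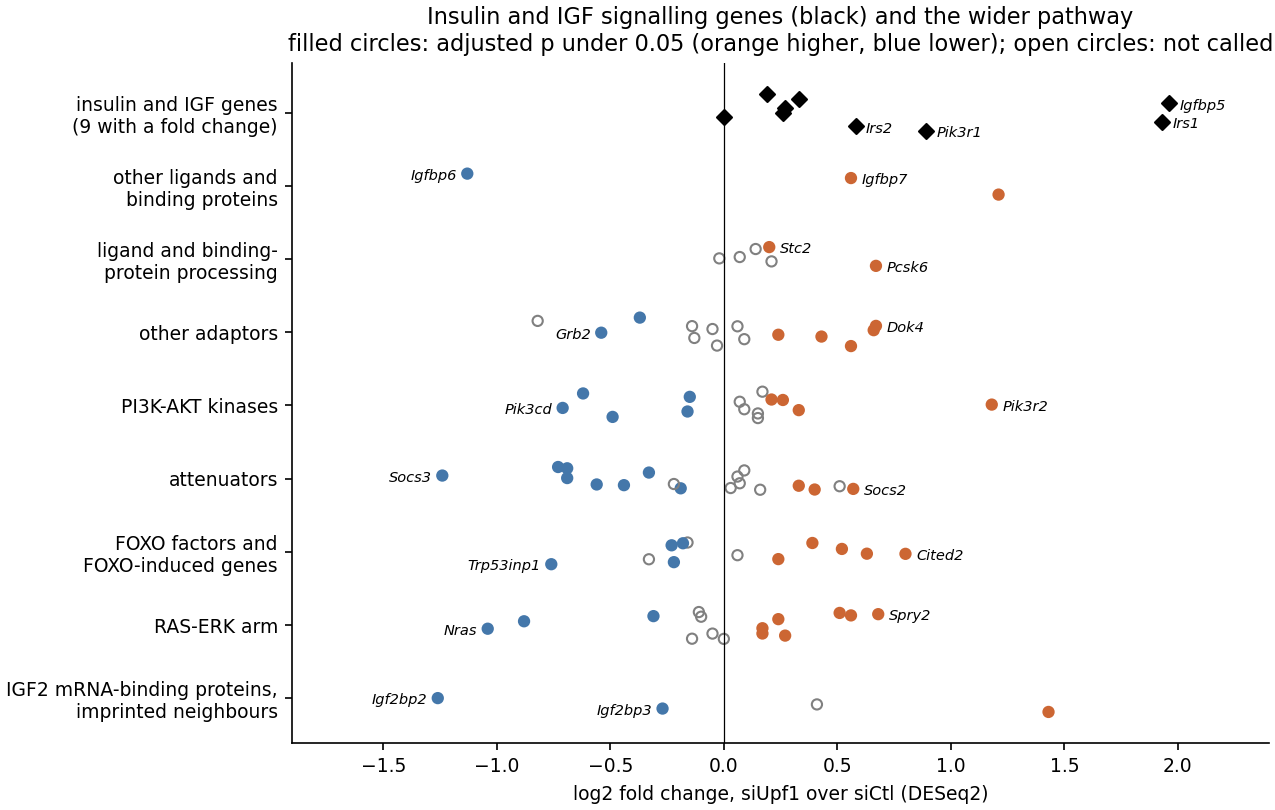
Log2 fold change of siUpf1 over siCtl (x axis, DESeq2) for the 9 detected insulin and IGF signalling genes (black diamonds) and for the tested genes of each wider list (circles, filled where the adjusted p-value was under 0.05). Igfbp5 (1.96) and Irs1 (1.93) lie to the right of all other plotted genes, and each wider list except that of ligand and binding-protein processing holds filled points on both sides of 0.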

How the data were processed

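The deposited table held raw counts of reads for each gene, made by the authors from single-end reads of stranded, poly(A)-selected libraries. Reads were trimmed with fastp, mapped to GRCm38 with STAR (2.7.0f in the submitters' processing notes) and counted by featureCounts (Subread 1.6.4) over exons in reverse-stranded mode. The deposited counts were neither normalised nor pooled, and 0 value columns were without a sample. PCR duplicates cannot be seen in such a table, so count floors cover counting error only.

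Counts were compared with DESeq2 1.42.0 in R 4.3.3 (two-sided Wald test, a single group term, size factors by median of ratios, Benjamini-Hochberg adjustment over all 15191 tested genes, threshold 0.05), the test named in the study's methods. With 2 libraries against 3, an exact permutation test cannot go below p = 0.1 and was not used. Alternatives were the edgeR 4.0.16 quasi-likelihood test, TMM or total-count size factors, a minimum of 10 counts in 2 libraries, no independent filtering, a block for the replicate number, and omission of each library in turn. Scripts were tested on simulated data.

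The insulin and IGF genes and the lists were chosen with earlier results of these data known. The other genes named were Upf1, the called gene with the largest and the smallest log2 fold change in each list among those averaging 100 normalised counts or more, the ligand genes and imprinted neighbours H19 and Airn, and the 3 genes most like Igfbp5 and Irs1. Any further pathway gene is marked where it appears, and cell type markers are named by their reads.

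Transcripts, positions and exon lengths came from GENCODE M21 (GRCm38), which held 99.8% of the table's identifiers. The study counted with a later release. One representative protein-coding transcript stood for each gene, and N2A cells may use other isoforms. Libraries correlated more strongly within than between groups. Some items examined are not reported here.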

Additional observations from a re-analysis of the deposited data

How the results depend on the processing

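No fold change of the insulin and IGF genes or of the other named genes examined changed sign where the comparison was called. Cavin2, Fbn1, Syn2 and Socs1 were not examined under the other settings. The number of the 9 tested genes called higher was 6 or 7 under the 11 settings. Only the Insr call was lost, under the replicate block and without siCtl replicate 3 (log2 fold change 0.16). Without siCtl replicate 1 its log2 fold change was 0.36. The replicate block left 1957 genes higher and 1962 lower among all genes, and 17 higher and 16 lower in the wider lists, down from 3341, 3481, 29 and 25. Replicate numbers 1 and 3 are shared by the groups, and deviations from the group means correlated at -0.086 and -0.075 over 11898 genes. With 2 siCtl libraries their deviations mirror each other, so these values are not independent and cannot decide whether the numbers pair the libraries. The block also takes siUpf1 replicate 2, which has no siCtl partner, out of the contrast. Whether calls lost under the block are weaker effects was not tested. Under the block the calls of Stc2 (adjusted p = 0.304), Trp53inp1 (0.091) and Igf2bp3 (0.158) were also lost. H19 and Igfbpl1 had no adjusted p under the block, so they were not called there either. With edgeR, 4220 genes were higher and 4172 lower. Leaving out 1 library gave 2393 to 2944 higher and 2374 to 3115 lower genes, and 20 to 25 higher and 17 to 26 lower in the wider lists. Without a siCtl library the lone one was assumed to vary like the siUpf1 libraries. Of the tests of other named genes under these settings, 23 lost and 2 gained a call and 411 did neither. The longest annotated 3′ UTR in place of the representative one left the genes with a seed match as they were. Depth limits Igf2, Igf2r and H19.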
